A study of Homo sapiens with 6 samples.

Results

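The 44 genes described here mark the epithelial and the mesenchymal state of carcinoma cells, 24 of them epithelial and 20 mesenchymal, out of 19775 genes with a single-symbol probe set on the array. They were listed from general knowledge, but with earlier results of these data known. They were measured in MDA-MB-231, an established human triple-negative breast cancer line, on 1-colour arrays that read 54675 probe sets, each a group of short oligonucleotides against 1 stretch of transcript. The 6 arrays came from 3 samples of cells stably expressing an shRNA against MYOSIN10, the gene now called MYO10, and 3 samples of cells stably expressing a scramble shRNA. All 6 samples therefore carried an shRNA construct and grew in serum-containing L-15 medium. The labels do not say how many MYOSIN10 hairpins were used, whether the cells were pools or clones, or whether the samples 1 to 3 were separate cultures, and the p-values reflect only how far these samples differ among themselves, possibly for technical reasons.

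Epithelial cells hold together through adherens junctions built on E-cadherin, through tight junctions and through desmosomes anchored on keratin filaments. In the epithelial-mesenchymal transition, transcription factors of the ZEB, SNAI and TWIST families repress many of these genes, and cells gain vimentin filaments, other cadherins and a contractile actin cytoskeleton. MDA-MB-231 is known as a largely mesenchymal line that lacks E-cadherin and keeps luminal keratins. MYO10 is a motor protein that moves along actin to the tips of filopodia.

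Among the members, the apical mucin gene MUC1 rose and the actin-binding gene CALD1 fell in MYOSIN10 shRNA cells, and neither vimentin nor any of the 4 mesenchymal transcription factors with enough signal to test passed. Signals are given as log2 of the deposited signal on its linear scale plus 16, and a gene was called where limma's Benjamini-Hochberg adjusted p over all 14174 genes tested was under 0.05. The test covered 34 of the 44 members, those with a probe set at or above the 40th percentile of signal on 3 or more arrays. Of the 18 epithelial members tested, 1 was called higher and 0 lower, and of the 16 mesenchymal members tested, 0 were called higher and 1 lower. Over all genes tested, 1.62% were called, 1.16% higher and 0.459% lower. In a culture measured in bulk, fewer cells of a kind and less RNA per cell cannot be told apart.

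Of the epithelial members tested, 16 had a positive and 2 a negative log2 fold change, and of the mesenchymal members 7 had a positive and 9 a negative one, while 51.8% of all genes tested were positive. With the called genes counted in, at an unadjusted p under 0.05 there were 8 epithelial members higher and 1 lower, and 1 mesenchymal member higher and 5 lower, against 8.49% of all genes higher and 6.39% lower at that level. The 3 MYOSIN10 shRNA arrays lay entirely above the 3 scramble arrays for 6 epithelial and 0 mesenchymal members, against 11.2% of all genes tested (19.8% did not overlap in either direction). They lay entirely below for 1 epithelial and 5 mesenchymal members, against 8.56% of all genes tested. The median log2 fold change, MYOSIN10 shRNA over scramble shRNA throughout, was 0.28 for the epithelial members tested and -0.044 for the mesenchymal ones, beside 0.0093 over all genes. The tested members are those with enough signal, not all 44, and these counts and medians are descriptions without a test.

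**Figure D1:**
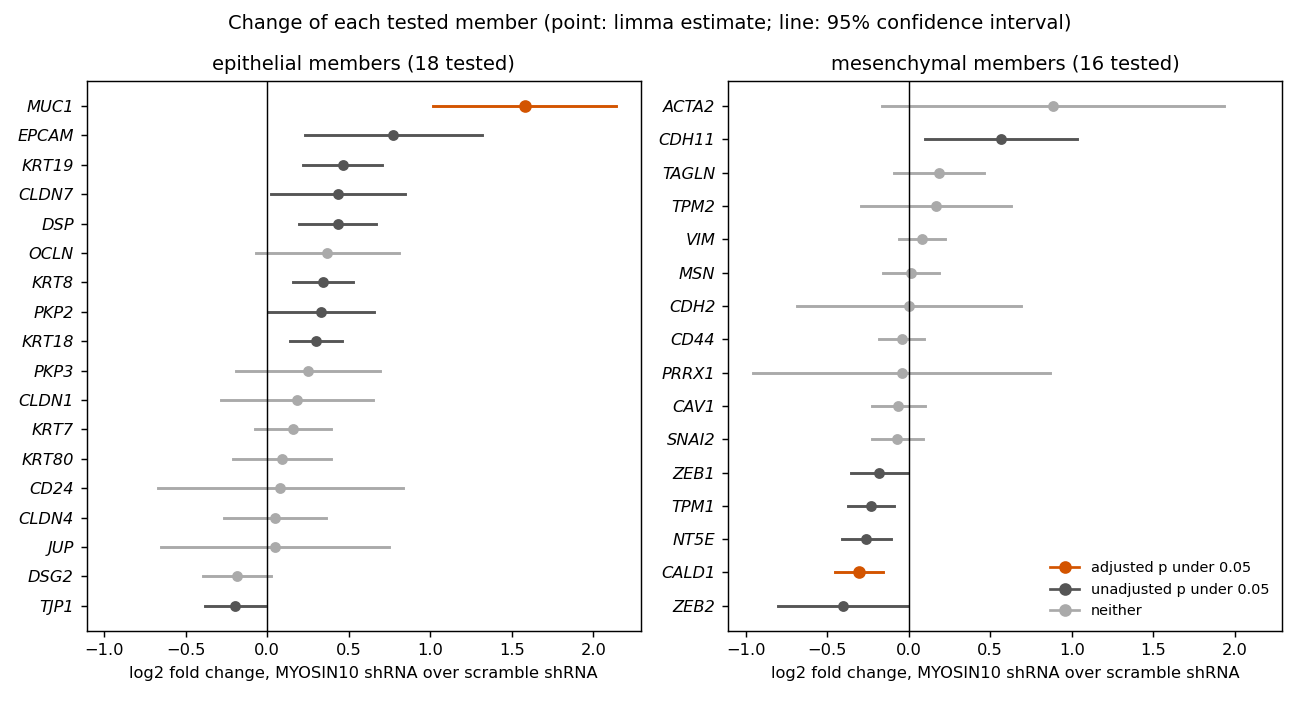
Log2 fold change (MYOSIN10 shRNA over scramble shRNA, x axis) of the 18 epithelial members tested (left) and the 16 mesenchymal members tested (right), with the limma estimate as a point and its 95% confidence interval as a line. MUC1 at 1.58 and CALD1 at -0.31 are the called members, in orange; dark grey marks an unadjusted p under 0.05.

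The target itself was lower. MYO10 read 10.70, 11.39 and 10.64 in MYOSIN10 shRNA cells, against 11.57, 11.96 and 11.86 in scramble cells, so that 54.2% of the scramble signal was left (log2 fold change -0.88 ± 0.18 SE, limma adjusted p = 0.0303). Of the 5 kept MYO10 probe sets, 4 were lower and 1 was higher, at 0.31, and their mean gave -0.55 (limma adjusted p = 0.149). The call of MYO10 held in 10 of 18 alternatives. Besides the mean of probe sets, it ended (limma adjusted p in brackets) without MYOSIN10 shRNA array 1 (0.137) or 3 (0.143), without scramble array 1 (0.0643) or 3 (0.142), with no filter (0.0821), with no variance trend (0.243) and without the probe sets whose names mark them as shared or cross-hybridizing (-0.58, 0.139). MYOSIN10 shRNA array 2 kept the most MYO10 signal of its group. Correlations over all genes tested ran from 0.978 to 0.987 among the array pairs, and scramble array 2 correlated 0.983 on average with the MYOSIN10 shRNA arrays and 0.982 with its own group. Markers of the line were set beside the signal filter, which 14174 of 19775 genes passed, so passing it says little about a marker. VIM, CD44, MSN, CAV1 and NT5E all passed. Of 11 luminal genes that such a line should lack, 7 passed too, GATA3 and ESR1 among them, while CDH1, CLDN3, FOXA1 and PGR did not. Of the luminal genes 0 were called. SPDEF (log2 fold change 0.50, limma adjusted p = 0.292), EPCAM and CLDN7 were higher at an unadjusted p under 0.05, and no other luminal gene reached it. Of 15 markers of leukocytes, endothelium, fibroblasts and basal epithelium, 13 had a probe set, 8 passed the filter, and 0 were called or reached an unadjusted p under 0.05.

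Among the surface glycoproteins of epithelial cells, MUC1 was the one called. MUC1, a heavily glycosylated mucin of the apical membrane, read 8.17, 7.61 and 8.37 in MYOSIN10 shRNA cells, against 6.25, 6.88 and 6.29 in scramble cells. All MYOSIN10 shRNA arrays were higher, with the smallest gap between the arrays numbered 2. MUC1 averaged 8.05 ± 0.40 in MYOSIN10 shRNA cells and 6.47 ± 0.35 in scramble cells (SD, n = 3 each), a 2.99-fold rise (log2 fold change 1.58 ± 0.26 SE, limma adjusted p = 0.00964). Its dimmer probe sets gave 0.61 and 0.77 on the log2 scale, with adjusted p of 0.364 and 0.516 among all kept probe sets (limma), and the mean of the 3 gave 0.98 (limma adjusted p = 0.103). The call of MUC1 ended without MYOSIN10 shRNA array 1 (limma adjusted p = 0.0705) or 3 (0.0722) and without scramble array 1 (0.0577) or 3 (0.0569).

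EPCAM, an adhesion molecule used to capture epithelial tumour cells, read 8.90, 8.74 and 8.65 in MYOSIN10 shRNA cells, against 8.09, 8.55 and 7.34 in scramble cells. The groups did not overlap, but scramble arrays 2 and 3 lay far apart. Its log2 fold change was 0.77 ± 0.25 (SE; 95% confidence interval 0.23 to 1.32; limma adjusted p = 0.159), and it was 0.45 without scramble array 3 and 1.05, and called, without scramble array 2. CD24, a small mucin-like anchored glycoprotein, read 6.54, 7.50 and 6.35 in MYOSIN10 shRNA cells, against 6.22, 7.18 and 6.75 in scramble cells. Array 2 was the highest of each group for CD24, and the log2 fold change was 0.080 with an interval from -0.67 to 0.83.

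For genes of this kind the stretch just before the transcription start is of interest because ZEB and SNAI proteins bind E-boxes with the letters CAGGTG there. The 250 bases before the RefSeq start (GRCh38.p14) are shown for both called members and for DSP, an epithelial member with groups apart that also held these letters more than once. Capitals mark CAGGTG on either strand, which reads CACCTG from the other strand. MUC1 lies on the minus strand (chr1:155192916-155193165), and DSP (chr6:7541421-7541670) and CALD1 (chr7:134779384-134779633) lie on the plus strand.
MUC1: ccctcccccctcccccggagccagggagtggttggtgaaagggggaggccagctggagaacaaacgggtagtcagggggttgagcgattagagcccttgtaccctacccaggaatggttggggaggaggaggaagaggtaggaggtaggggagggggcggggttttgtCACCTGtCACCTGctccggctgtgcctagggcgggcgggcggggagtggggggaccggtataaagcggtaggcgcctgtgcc
DSP: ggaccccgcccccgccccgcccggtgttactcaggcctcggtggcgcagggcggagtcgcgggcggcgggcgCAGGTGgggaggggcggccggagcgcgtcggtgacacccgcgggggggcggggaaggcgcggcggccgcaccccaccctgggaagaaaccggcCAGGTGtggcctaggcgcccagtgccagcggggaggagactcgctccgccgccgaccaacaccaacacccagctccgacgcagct
CALD1: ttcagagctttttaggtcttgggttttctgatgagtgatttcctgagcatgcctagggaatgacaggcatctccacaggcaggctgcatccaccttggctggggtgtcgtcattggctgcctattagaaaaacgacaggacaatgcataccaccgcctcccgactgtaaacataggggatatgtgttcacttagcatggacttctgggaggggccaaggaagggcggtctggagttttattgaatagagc
MUC1 held 2 matches, with first bases 82 and 75 before the start, DSP held 2, at 178 and 85, and the CALD1 window held 0. For each gene only the first listed start was used. CDH1, EPCAM, KRT18, KRT19, PKP2, CDH11 and SNAI2 were among the members without a window. A window was at hand for 12 epithelial members, of which 5 held a match, and for 14 mesenchymal members, of which 1 did, the ZEB1 window. The 5 were MUC1, DSP and OCLN, with positive log2 fold changes, and DSG2 and TJP1, the 2 tested epithelial members with negative ones. Of all 27305 windows of the same length, 17.5% held one. The median GC content was 65.8% in the epithelial windows, 60.8% in the mesenchymal and 58.0% over all, and a match is a description of letters, not of binding.

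All 5 keratins, the intermediate filament proteins of epithelia, had positive log2 fold changes, and 0 were called. KRT19 read 13.06, 12.78 and 12.92 in MYOSIN10 shRNA cells, against 12.27, 12.71 and 12.39 in scramble cells (log2 fold change 0.46 ± 0.11 SE, limma adjusted p = 0.0641). KRT8 read 12.54, 12.48 and 12.62 in MYOSIN10 shRNA cells, against 12.06, 12.27 and 12.29 in scramble cells (0.34 ± 0.084 SE, limma adjusted p = 0.070). KRT18, the partner with which KRT8 forms filaments, read 13.51, 13.49 and 13.56 in MYOSIN10 shRNA cells, against 13.09, 13.31 and 13.27 in scramble cells (0.30 ± 0.074 SE, limma adjusted p = 0.0709). In each of these 3 the groups did not overlap, and the MYOSIN10 shRNA arrays spread less than the scramble arrays. Each of the 3 rested on 1 kept probe set, for KRT8 and KRT18 of a type whose name marks it as shared or cross-hybridizing. KRT7 stood at 0.16 and KRT80 at 0.090, both with overlapping groups and with array 2 the lowest of each group.

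Desmosomes join neighbouring cells by linking their keratin filaments. DSP, desmoplakin, the protein that ties the keratins to the junction, read 11.75, 11.64 and 11.77 in MYOSIN10 shRNA cells, against 11.08, 11.52 and 11.26 in scramble cells. Its groups did not overlap, and the log2 fold change was 0.43 ± 0.11 (SE, limma adjusted p = 0.0747). The plakophilin PKP2, a plaque protein, read 8.85, 8.97 and 8.84 in MYOSIN10 shRNA cells, against 8.46, 8.85 and 8.36 in scramble cells (0.33 ± 0.15 SE, limma adjusted p = 0.332). For PKP2 scramble array 2 reached the MYOSIN10 shRNA arrays and the other scramble arrays did not. The related PKP3 stood at 0.25 (95% confidence interval -0.19 to 0.69). The desmosomal cadherin DSG2 stood at -0.19 (-0.40 to 0.021), and its other probe set at -0.18. Plakoglobin, JUP, read 8.28, 7.30 and 8.32 in MYOSIN10 shRNA cells, against 8.36, 7.23 and 8.17 in scramble cells, so that array 2 was lowest in each group and the groups did not part.

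Tight junctions seal the space between epithelial cells. CLDN7, a claudin of their strands, read 9.13, 8.52 and 9.29 in MYOSIN10 shRNA cells, against 8.43, 8.51 and 8.71 in scramble cells. MYOSIN10 shRNA array 2 lay among the scramble arrays, and the log2 fold change was 0.43 ± 0.19 (SE, limma adjusted p = 0.311). It was 0.66 without MYOSIN10 shRNA array 2 and 0.28 without array 3, and CLDN7 was called without both arrays numbered 2 (0.64, limma adjusted p = 0.0196). TJP1, the scaffold ZO-1 beneath the claudins, read 12.03, 12.29 and 12.20 in MYOSIN10 shRNA cells, against 12.32, 12.43 and 12.36 in scramble cells (-0.20 ± 0.084 SE, limma adjusted p = 0.302). All its MYOSIN10 shRNA arrays were lower, the closest by a small margin, and its other probe set stood at -0.26. Without MYOSIN10 shRNA array 1 the log2 fold change of TJP1 was -0.12. Occludin, OCLN, stood at 0.37 (95% confidence interval -0.072 to 0.81), CLDN1 at 0.18 (-0.29 to 0.65) and CLDN4 at 0.048 (-0.26 to 0.36). The dimmer probe sets of OCLN disagreed in sign, at -0.16 and 0.20, and that of CLDN1 stood at -0.41.

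The remaining epithelial members lay too low to test. E-cadherin, CDH1, the calcium-dependent adhesion protein of adherens junctions, read 4.93, 4.73 and 5.32 in MYOSIN10 shRNA cells, against 4.21, 4.10 and 4.40 in scramble cells, where a signal of 0 gives 4. Its brighter probe set was higher on every MYOSIN10 shRNA array and its other probe set overlapped between the groups, and no array reached the 40th percentile with the brighter one, so no size is given. The splicing regulator ESRP1 (4.14 to 4.49 in MYOSIN10 shRNA cells, 4.39 to 4.66 in scramble cells), the transcription factor GRHL2 (4.70 to 5.21 in MYOSIN10 shRNA cells, 4.97 to 5.58 in scramble cells), the membrane protease ST14 and the tight junction scaffold TJP3 were likewise not tested. ESRP2, a relative of ESRP1, shares its probe set with another symbol and was not used.

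**Figure D2:**
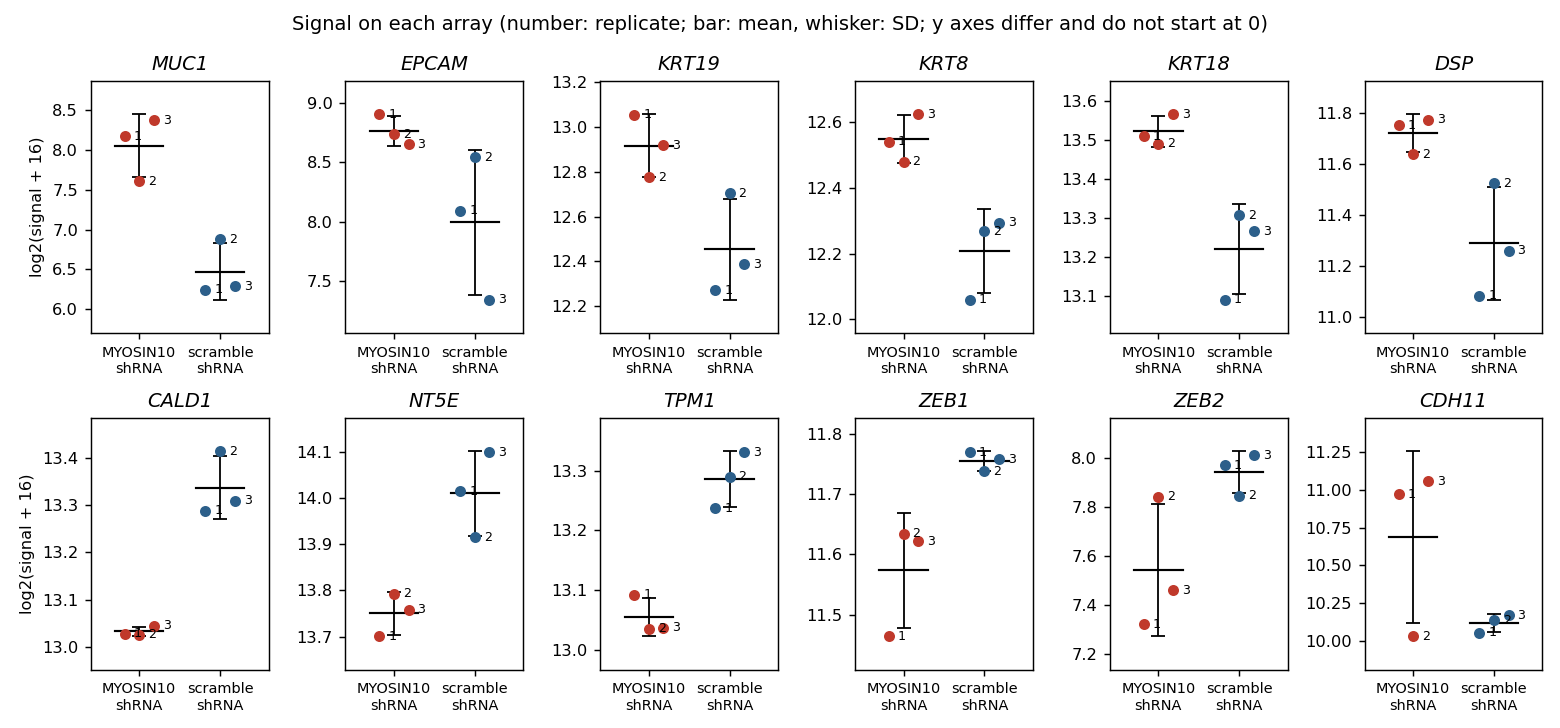
Log2(signal + 16) (y axis, a different range in each panel) of 12 members on the 3 MYOSIN10 shRNA arrays (red) and the 3 scramble shRNA arrays (blue), with replicate numbers, group mean and SD. In the upper row scramble array 2 is the highest scramble array in 5 of the 6 panels, and in the lower row CALD1 lies between 13.03 and 13.04 in MYOSIN10 shRNA cells and at 13.29 or more in scramble cells.

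CALD1 was the mesenchymal member that fell. It encodes caldesmon, which binds actin, tropomyosin and myosin and restrains contraction. CALD1 read 13.03, 13.03 and 13.04 in MYOSIN10 shRNA cells, against 13.29, 13.42 and 13.31 in scramble cells. The MYOSIN10 shRNA values were nearly identical and all lower than the scramble values. It averaged 13.03 ± 0.010 in MYOSIN10 shRNA cells and 13.34 ± 0.068 in scramble cells (SD, n = 3 each), and the log2 fold change was -0.31 ± 0.066 (SE, limma adjusted p = 0.0449), which makes scramble cells 1.24-fold higher. The call lay close to the threshold: it held without scramble array 2 (limma adjusted p = 0.0376) and ended without MYOSIN10 shRNA array 1 (0.197), 2 (0.0964) or 3 (0.177) and without scramble array 1 (0.111) or 3 (0.115). Of 9 kept CALD1 probe sets, 6 were lower and 3 higher, and in the fit over all kept probe sets the brightest one missed the threshold (limma adjusted p = 0.058). The next brightest ones stood at -0.29, -0.27 and -0.067, while a dim one stood at 0.79 with its groups apart in the opposite direction, and the mean of all 9 gave -0.015.

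The tropomyosins, transgelin and smooth muscle actin divided by gene. TPM1, a tropomyosin that coats actin filaments, read 13.09, 13.04 and 13.04 in MYOSIN10 shRNA cells, against 13.24, 13.29 and 13.33 in scramble cells (log2 fold change -0.23 ± 0.065 SE, limma adjusted p = 0.108). Its groups did not overlap, its next 2 probe sets stood at -0.14 each, and its 3 dim ones ranged from -0.88 to 0.56, so that the mean of all 6 gave -0.11. The related TPM2 stood at 0.17 (95% confidence interval -0.29 to 0.63) and transgelin, TAGLN, at 0.19 (-0.089 to 0.46). Smooth muscle actin, ACTA2, stood at 0.89 with a wide interval from -0.16 to 1.93, with scramble array 2 at 4.56 and the other 5 arrays 6.29 to 7.07.

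NT5E, the surface enzyme CD73 that makes adenosine, read 13.70, 13.79 and 13.76 in MYOSIN10 shRNA cells, against 14.02, 13.92 and 14.10 in scramble cells. The groups did not overlap, and the log2 fold change was -0.26 ± 0.068 (SE, limma adjusted p = 0.0876). All 4 of its probe sets were negative, from -0.40 to -0.13, and the one at -0.40 passed among all kept probe sets (limma adjusted p = 0.045). The hyaluronan receptor CD44 read 14.49, 14.47 and 14.54 in MYOSIN10 shRNA cells, against 14.47, 14.53 and 14.62 in scramble cells (-0.043, 95% confidence interval -0.18 to 0.094). Of its 11 kept probe sets, 8 were higher and 3 lower, with 0 called. Caveolin-1, CAV1, which shapes membrane pits, read 14.40, 14.64 and 14.64 in MYOSIN10 shRNA cells, against 14.59, 14.67 and 14.60 in scramble cells (-0.063, -0.23 to 0.10). Moesin, MSN, a linker of membrane and cortical actin, stood at 0.014 (-0.16 to 0.19).

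Vimentin and the cadherins of mesenchymal cells were not called. VIM read 14.82, 14.83 and 14.90 in MYOSIN10 shRNA cells, against 14.69, 14.75 and 14.87 in scramble cells (log2 fold change 0.082, 95% confidence interval -0.060 to 0.22), and its groups overlapped. N-cadherin, CDH2, read 6.03, 5.87 and 6.24 in MYOSIN10 shRNA cells, against 5.72, 6.34 and 6.07 in scramble cells, and at this low signal its interval ran from -0.68 to 0.69. CDH11, a cadherin of mesenchyme and bone, read 10.97, 10.03 and 11.06 in MYOSIN10 shRNA cells, against 10.06, 10.14 and 10.17 in scramble cells. MYOSIN10 shRNA arrays 1 and 3 stood clear of the scramble arrays and array 2 lay below them all. The log2 fold change of CDH11 was 0.57 ± 0.21 (SE, limma adjusted p = 0.239), and without MYOSIN10 shRNA array 2 it was 0.89 (limma adjusted p = 0.00405). Its other 3 probe sets were positive, at 0.51, 0.46 and 0.11.

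Of 8 mesenchymal transcription factors, 4 were tested, all with negative log2 fold changes and 0 called. ZEB1, a zinc-finger repressor of E-cadherin, read 11.46, 11.63 and 11.62 in MYOSIN10 shRNA cells, against 11.77, 11.74 and 11.76 in scramble cells (-0.18 ± 0.079 SE, limma adjusted p = 0.316). Its relative ZEB2 read 7.32, 7.84 and 7.46 in MYOSIN10 shRNA cells, against 7.97, 7.85 and 8.01 in scramble cells (-0.40 ± 0.18 SE, limma adjusted p = 0.334). For both the groups did not overlap, although for ZEB2 the arrays numbered 2 nearly touched. Of the other 3 ZEB1 probe sets, 2 were negative, and the other ZEB2 probe set stood at -0.32. SNAI2, also called Slug, read 12.37, 12.38 and 12.31 in MYOSIN10 shRNA cells, against 12.35, 12.48 and 12.44 in scramble cells, and its interval ran from -0.23 to 0.088. The homeobox factor PRRX1 stood at -0.044 with an interval from -0.95 to 0.87. SNAI1, TWIST1, TWIST2 and the forkhead factor FOXC2 lay below the filter, with no value above 6.06 on any array. SNAI1 read 5.16, 4.73 and 4.79 in MYOSIN10 shRNA cells, against 4.36, 4.49 and 4.67 in scramble cells.

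**Figure D3:**
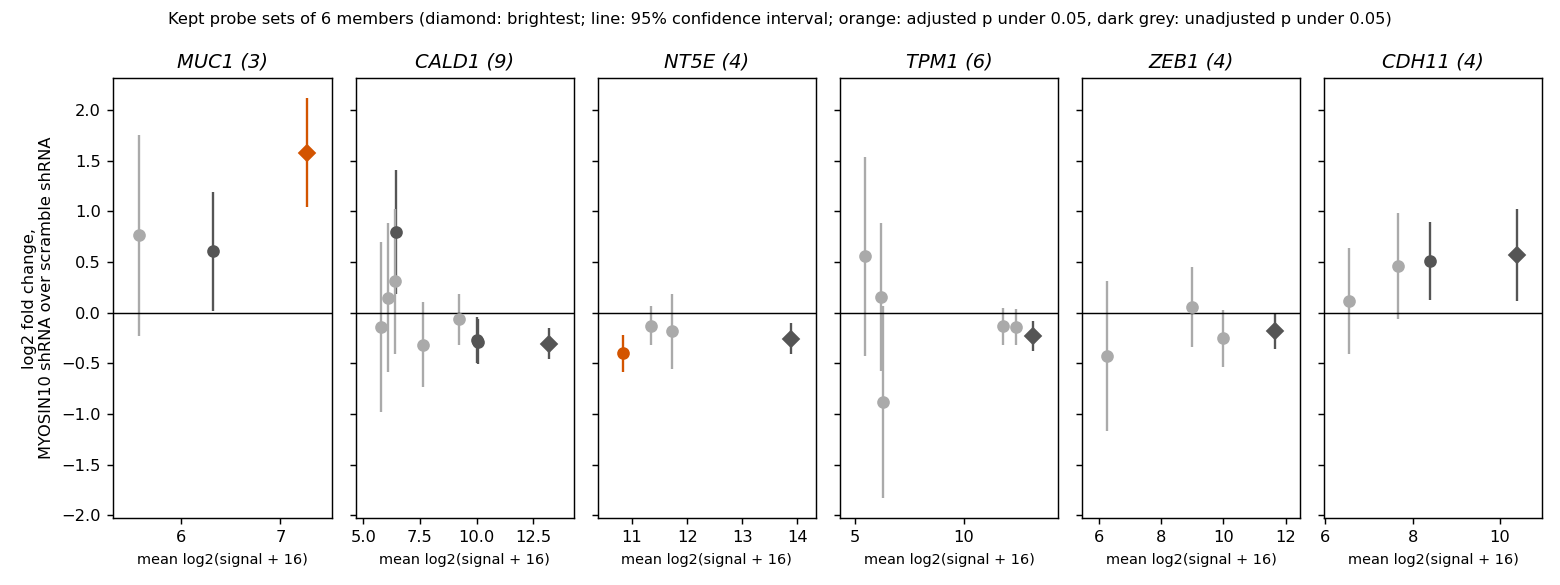
Log2 fold change (y axis) of each kept probe set of 6 members against its mean log2(signal + 16) over the 6 arrays (x axis), with 95% confidence intervals and the brightest probe set as a diamond. The 3 MUC1, 4 NT5E and 4 CDH11 probe sets lie on 1 side of zero in each gene, and those of CALD1, TPM1 and ZEB1 lie on both.

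The epithelial and the mesenchymal members were also compared with each other on each array, by the median deviation of the members tested from their own means over the 6 arrays. Epithelial members stood at 0.18, 0.11 and 0.20 in MYOSIN10 shRNA cells, against -0.28, -0.022 and -0.095 in scramble cells. Mesenchymal members stood at -0.025, -0.018 and -0.0037 in MYOSIN10 shRNA cells, against -0.044, 0.078 and 0.063 in scramble cells. The epithelial median lay higher on every MYOSIN10 shRNA array, and the mesenchymal median of scramble array 1 lay below all the others. Epithelial minus mesenchymal was 0.20, 0.13 and 0.20 in MYOSIN10 shRNA cells, against -0.24, -0.10 and -0.16 in scramble cells. The same difference between the median log2 fold changes was 0.32, a description without a test.

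**Figure D4:**
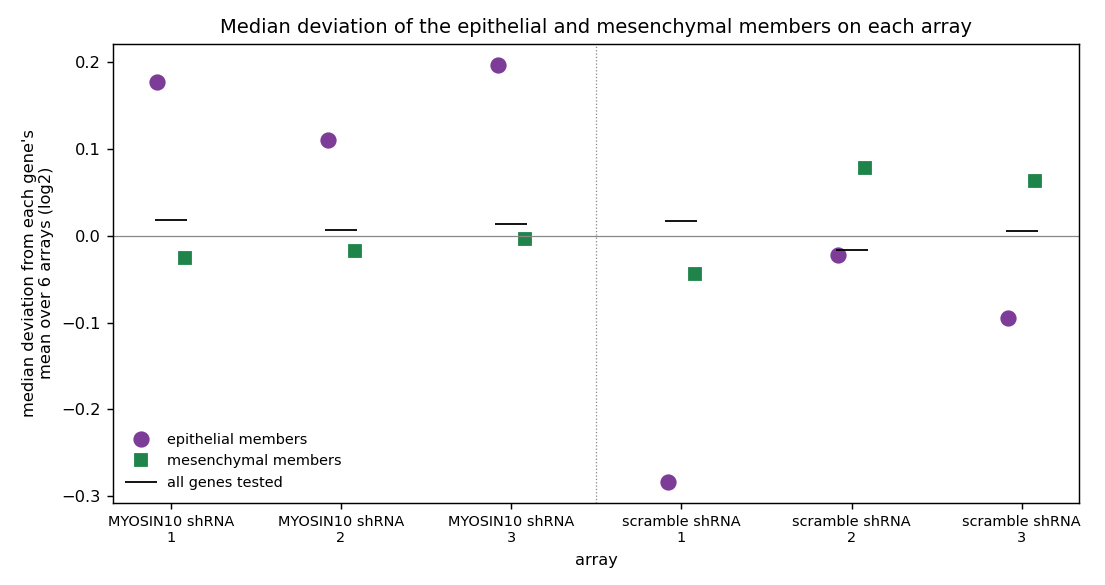
Median deviation (log2, y axis) of the 18 epithelial members tested (circles), the 16 mesenchymal members tested (squares) and all genes tested (bars) from each gene's mean over 6 arrays, for each array (x axis). Epithelial members lie at 0.11 or more on MYOSIN10 shRNA arrays and at -0.022 or less on scramble arrays.

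The arrays numbered 2 were the closest pair across groups for many epithelial members. Of the 8 epithelial members higher at an unadjusted p under 0.05, scramble array 2 was the highest scramble array for 6, and MYOSIN10 shRNA array 2 the lowest of its group for 6. MYO10 was the least reduced on MYOSIN10 shRNA array 2, while scramble array 2 had the highest MYO10 signal of all arrays (11.96). Whether the MYO10 level bears on these members was not tested. Without scramble array 2, 6 epithelial members were called higher and 2 mesenchymal members lower (limma). These were MUC1, EPCAM, KRT8, KRT18, KRT19, DSP, CALD1 and NT5E. Calls rose over all genes too, to 964 of the 14174 tested without this array, against 229 with every array in. Without MYOSIN10 shRNA array 2, MUC1 and the mesenchymal member CDH11 were called, both higher, and CALD1 was not. Without any other single array, no member was called.

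Other genes of both states, listed from general knowledge but with earlier results of these data known, gave no called gene. Of 42 further epithelial genes 26 were tested, 0 were called, and 2 were higher and 2 lower at an unadjusted p under 0.05. SPINT2, an inhibitor of membrane serine proteases such as matriptase, read 11.16, 11.13 and 11.13 in MYOSIN10 shRNA cells, against 10.78, 10.85 and 10.67 in scramble cells (log2 fold change 0.37 ± 0.085 SE, limma adjusted p = 0.0525). The polarity protein gene PARD3 stood at -0.33 (limma adjusted p = 0.210) and PATJ, of the Crumbs polarity complex, at 0.73 (0.276). Of 40 further mesenchymal genes 28 were tested, 0 were called, and 2 were higher and 1 lower at an unadjusted p under 0.05. The matrix glycoprotein tenascin-C, TNC, stood at -0.42 (limma adjusted p = 0.107), the Wnt ligand WNT5A at 1.14 (0.112) and the calcium-binding S100A4 at 0.75 (0.0764). The median log2 fold changes were 0.070 for the further epithelial genes and -0.012 for the further mesenchymal genes. Of the former 16 were positive and 10 negative, and of the latter 13 and 15. MYOSIN10 shRNA arrays lay entirely above scramble arrays for 2 further epithelial and 4 further mesenchymal genes, and entirely below for 2 and 1. The members had 6 and 0 above, and 1 and 5 below. Over all genes tested, 11.2% lay above and 8.56% below.

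By Pearson correlation over the 6 arrays, chosen as the highest among 14173 genes, the profiles most like MUC1 were those of SRP14, ITM2B and SDE2 (0.998, 0.994 and 0.993), of which ITM2B was called higher. Those most like CALD1 were GLB1L, ZNF91 and TRPM6 (0.985, 0.985 and 0.978), and 0 of these 3 were called. None of the 6 was a member.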

How the data were processed

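The labels describe 6 samples of 1 array each, with biotin-labelled cRNA made by a 3' in vitro transcription kit. The authors deposited log2 signals made with MAS5, per the submitters' processing notes, which scales each array by itself. The sources used here give neither its version nor any limit set on low signals. The linear trimmed mean was the same on all arrays (500.1), so a change in total RNA per cell is not visible. Precision is limited by having 3 arrays a group; signals carry no read counts.

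Analysed values were log2(linear signal + 16), which understates changes of low signals. The filter kept 33370 probe sets. Symbols came from the platform annotation (1 symbol for 41097 probe sets, several for 1801, none for 11777), 41043 of them updated through RefSeq GRCh38.p14, and the brightest kept probe set stood for a gene. Levels of different genes are not compared. The comparison used lmFit and eBayes with a variance trend from limma 3.58.1 (R 4.3.3), two-sided. In simulated data with 200 of 14174 genes changed, the fit found 71.6% of changes of size 1 on the log2 scale and 37.4% of those of size 0.5. Of its calls there, 7.94% were false. The simulated noise was independent between genes and arrays, so effects that many genes share on 1 array were not covered. Every member is named, with values on every array for members called, at an unadjusted p under 0.05 or with groups apart, and for 9 defining genes. The members, lists, tests and alternatives were chosen with earlier results of these data known. Alternatives changed the added constant, filter, normalization, probe set choice, variance model, array weights, replicate block and arrays used. Figures used Python 3.11.15 and matplotlib 3.10.9.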

Additional observations from a re-analysis of the deposited data

How the results depend on the processing

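Against 229 genes called, 1 epithelial and 1 mesenchymal member, the counts were 791, 6 and 3 with array weights, and 1224, 7 and 3 without both arrays numbered 2. In both of these settings the mesenchymal members called were CDH11, which was higher, and CALD1 and NT5E, which were lower. Averaging the probe sets of each gene gave 111, 0 and 0, no variance trend gave 7, 0 and 0, and no filter gave 126 genes and 0 mesenchymal members. Quantile normalization called 2 epithelial and 2 mesenchymal members. Without probe sets of the types _s_at, _x_at and _a_at, 0 epithelial members were called. That setting tested 23 members, against 34 in the comparison above, and MUC1, EPCAM, KRT8 and KRT18 had no probe set left. Leaving out 1 array at a time gave 66 to 964 genes, 0 to 6 epithelial and 0 to 2 mesenchymal members, with the high counts without scramble array 2.

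The replicate block called 611 genes, 6 epithelial members and 2 mesenchymal members (MUC1, EPCAM, KRT8, KRT18, KRT19, DSP, CALD1 and NT5E). Deviations of same-numbered arrays correlated at 0.059, 0.16 and 0.040. The arrays numbered 2 correlated negatively, at -0.11 to -0.072, with the other-numbered arrays of the other group. As deviations cancel out within each group, the 0.16 by itself makes these values negative on balance, so they add no separate observation. Not every array correlated best with its own number, as MYOSIN10 shRNA array 3 did so with scramble array 1 (0.066). The numbers were therefore not taken to pair the samples, and what the arrays numbered 2 share was not tested.

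The epithelial minus mesenchymal median of 0.32 was 0.20 with the mean of probe sets, 0.23 with no filter, 0.20 without the probe set types above, 0.39 without both arrays numbered 2 and 0.24 to 0.38 over single arrays left out. The epithelial median of 0.28 was 0.14 without those types. Neither this median nor the difference without those types includes MUC1, EPCAM, KRT8 or KRT18, which had no other probe sets. The mesenchymal median ran from -0.093 to 0.017 over single arrays left out. The sign of CDH2 turned with an added 64 (-0.0020), with arrays centred on their medians (-0.032) and over single arrays left out (-0.16 to 0.15). CD44 turned with the mean of probe sets (0.0058), and CAV1 without MYOSIN10 shRNA array 1 (-0.10 to 0.018 over single arrays left out). MUC1 stayed positive in all 17 alternatives that gave it a value (0.98 to 2.00) and was called in 11. CALD1 stayed negative in all 18 (-0.34 to -0.015) and was called in 10. Their adjusted p ran up to 0.135 and 0.965 (limma). The causes were not tested. Signals near the filter limit what can be said of the 9 members whose probe sets did not pass it.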
